A study of Homo sapiens with 12 samples.

Results

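The genes described are 10 of the 63677 gene identifiers counted in each library: the ID transcription regulators ID1, ID2, ID3 and ID4, the signalling proteins SMAD3, SMAD6 and SMAD7, the BMP receptors BMPR1A and BMPR1B, and the pseudoreceptor BAMBI. They were taken by symbol as genes of the BMP and TGF-beta pathway and its feedback, and all 10 were found and passed the filter of at least 10 counts over all samples. ID2 was chosen for its differing DHT response, so its values in any comparison that uses the hormone-starved samples are a description and carry no test. The study asked how loss of Bag-1L, the longest protein made from BAG1, affects androgen-dependent transcription in LNCaP, an established human prostate cancer line that grows in response to androgen. All samples were LNCaP cells that had been given TALEN constructs or their vector: the control was the vector line, and Bag-1L KO was a line isolated by dilution and screened for the deletion, so that differences between the lines may also come from the choice of clone. Each line was grown in full medium (FM, RPMI with fetal bovine serum), or was hormone-starved for 72 h in charcoal/dextran-treated serum and then given ethanol (EtOH, the vehicle) or 10 nM dihydrotestosterone (DHT), the most potent natural androgen, for 16 h. Poly(A) RNA was sequenced from 2 samples in each of the 6 groups, 12 in all. The labels do not say whether these came from separate cultures, so p-values measure the spread between samples of a group, which may be technical.

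BMPs and TGF-beta bind pairs of type I and type II receptor kinases at the cell surface. The activated type I receptor phosphorylates receptor-regulated SMADs (SMAD1, SMAD5 and SMAD9 downstream of BMPs, SMAD2 and SMAD3 downstream of TGF-beta and activins), which enter the nucleus with SMAD4. Among the best known BMP targets are the ID genes, whose products hold a helix-loop-helix but no DNA-binding region and keep basic helix-loop-helix factors such as TCF3, TCF4 and TCF12 from binding DNA, and the inhibitory SMAD6 and SMAD7 and BAMBI, which lower the signal. In prostate tissue the pathway is known for its part in epithelial growth and differentiation.

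The sequences just before the start sites of ID1, ID2 and ID3 are shown because these are the abundant ID genes and their DHT responses, given further on, ranged from large to small. Each is the 250 bases before the RefSeq start, written 5′ to 3′ on the gene's strand and placed on GRCh37 by an exact match at chr20:30192842-30193091 (plus strand, ID1), chr2:8821936-8822185 (plus strand, ID2) and chr1:23885993-23886242 (minus strand, ID3). Capitals mark matches on either strand to the CCAAT box (CCAAT) and the TATA box (TATAAA).
ID1: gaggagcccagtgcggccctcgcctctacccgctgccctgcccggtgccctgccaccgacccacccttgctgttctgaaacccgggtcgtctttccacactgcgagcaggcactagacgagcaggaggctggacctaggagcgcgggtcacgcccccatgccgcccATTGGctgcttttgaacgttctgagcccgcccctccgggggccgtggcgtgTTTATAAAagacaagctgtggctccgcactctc
ID2: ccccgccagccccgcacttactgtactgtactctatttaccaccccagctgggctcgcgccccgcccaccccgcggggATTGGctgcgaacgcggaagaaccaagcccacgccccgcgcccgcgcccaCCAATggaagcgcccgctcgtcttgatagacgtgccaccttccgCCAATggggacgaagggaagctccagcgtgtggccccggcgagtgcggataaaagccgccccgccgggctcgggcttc
ID3: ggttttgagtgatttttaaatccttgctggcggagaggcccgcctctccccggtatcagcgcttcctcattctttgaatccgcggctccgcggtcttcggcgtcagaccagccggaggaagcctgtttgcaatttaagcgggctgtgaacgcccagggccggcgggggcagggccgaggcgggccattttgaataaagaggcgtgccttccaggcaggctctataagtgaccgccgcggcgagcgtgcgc
The ID1 window held a CCAAT box 84 bases before the start and a TATA box found on both strands at 31 and 33 bases in overlapping letters. The ID2 window held CCAAT boxes at 172, 122 and 78 bases and the ID3 window held neither motif. CCAAT was in 32% of 35116 RefSeq promoter windows of this length and TATAAA in 10.7%. Of the SMAD-linked motifs searched, GGCGCC (16.4% of windows) and GTCTAGAC (0.182%), neither was in the 3 ID windows shown. Among the windows of the other genes, GGCGCC occurred 3 times before BAMBI and 2 times in 1 of the SMAD3 windows, and GTCTAGAC 1 time before SMAD6. The ID2 window lies 3211 bases inside the gene as GENCODE draws it, whose upstream transcripts start earlier. A match is a description of letters and not a binding site, and the absence of a motif covers only these 250 bases.

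Gene counts per library ranged from 20826843 to 30354666. A reference level of 3 counts, which was not used as a filter, corresponds to 0.0988 to 0.144 CPM (counts scaled to a common library total). All 7 prostate luminal markers examined (KLK3, KLK2 and others) had counts in every sample, the 3 basal markers summed to at most 32.9 normalized counts, and the 4 fibroblast markers to between 390.8 and 1017.7, mostly from COL1A1 (370.3 to 1012.6), with COL1A2 at no more than 5.7. The control EtOH samples lay farthest apart, with a median difference between replicates of 0.238 on the log2 scale, followed by control DHT (0.172), against 0.076 to 0.127 in the other groups. BAG1 (ENSG00000107262) had 1701.5 to 2702.6 normalized counts in the 6 control samples and 1075.5 to 1576.1 in the 6 KO samples, which do not overlap. The TALEN cut removes a start codon and not the transcript, and the count cannot separate the Bag-1 proteins, so this is no direct check of the knockout. A normalized count here is a read count divided by the DESeq2 size factor of its library. A gene is said to have risen or fallen when the DESeq2 adjusted p was at most 0.05 and the fold change at least 1.5, and fold changes are on the log2 scale with their standard errors (SE). By this rule BAG1 was lower in KO in EtOH (-0.94, SE 0.18) and DHT (-1.14, SE 0.18). In FM it did not pass (-0.43, SE 0.18, adjusted p = 0.0682), and the EtOH value was -0.57 without control EtOH replicate 2.

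Of the ID genes, ID1, ID2 and ID3 were abundant and ID4 was scarce. Per kilobase of annotated exon, control cells in FM had mean levels of 1150 normalized counts for ID3, 755 for ID1, 644 for ID2 and 9.85 for ID4. In EtOH the order was ID2 (502), ID3 (477), ID1 (142) and ID4 (3.91), and in DHT it was ID2 (1420), ID1 (719), ID3 (696) and ID4 (7.68). ID1 and ID3 in DHT, and ID2 and ID3 in EtOH, differed by less than the spread of their replicates.

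**Figure D1:**
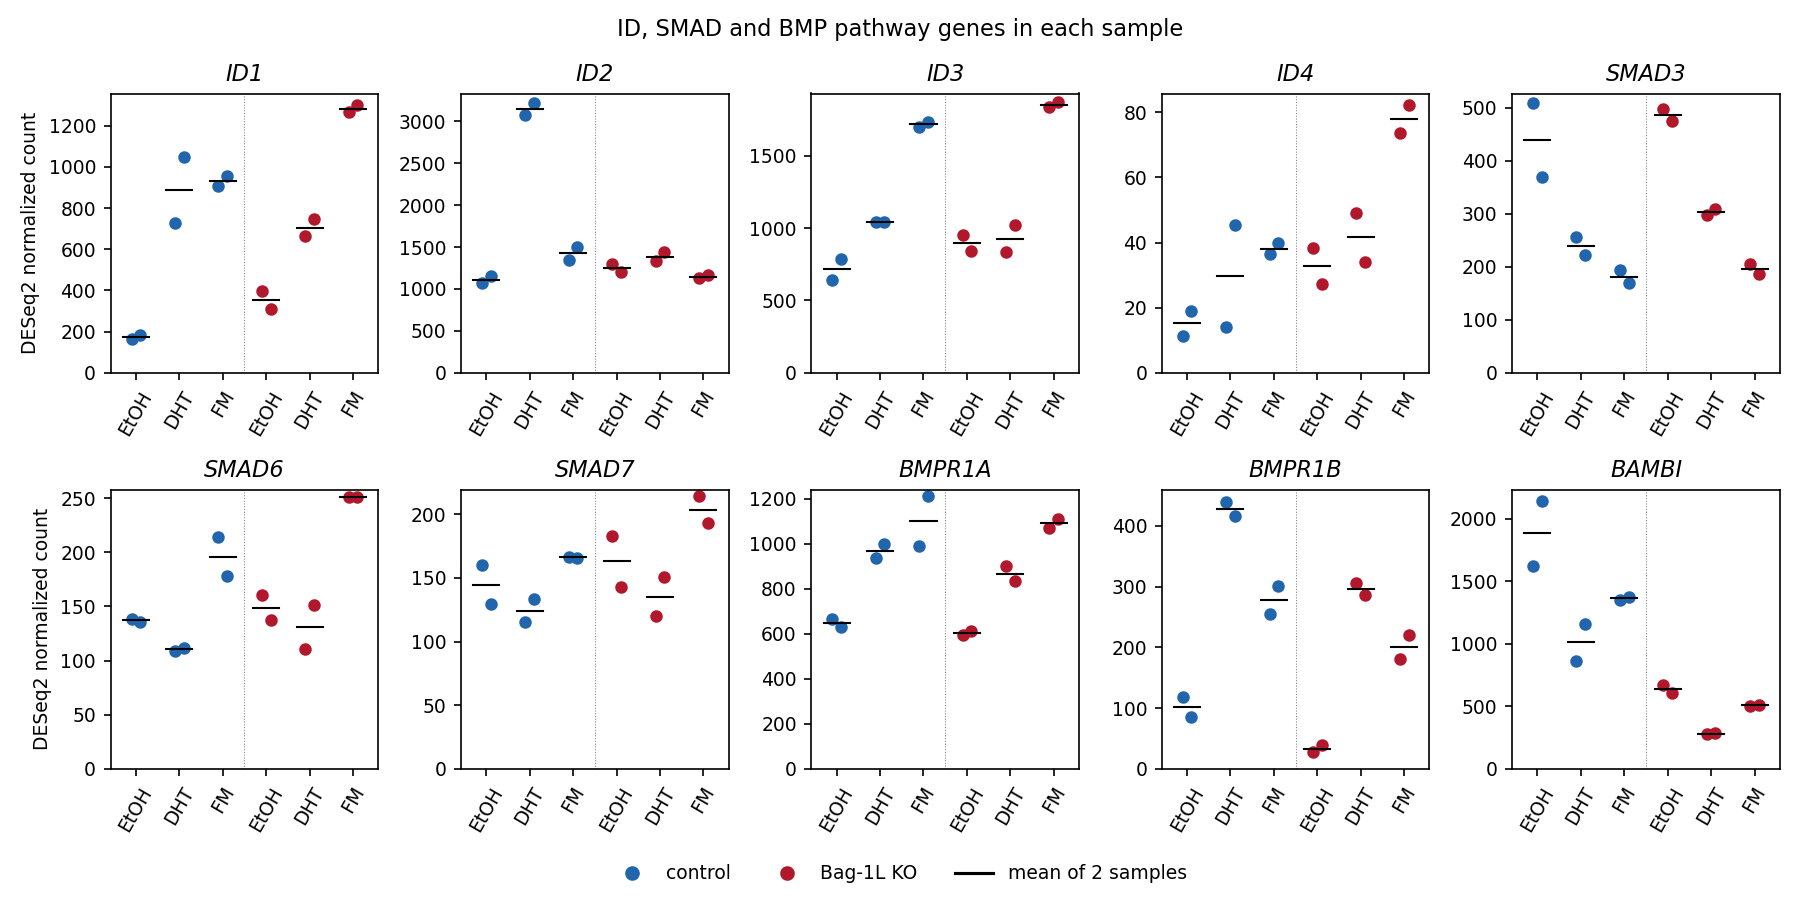
DESeq2 normalized count (y axis, from 0, a scale of its own in each panel) of the 10 genes in each sample, for EtOH, DHT and full medium (FM) in control (blue) and Bag-1L KO (red). Points are samples and bars the mean of 2. BAMBI lies lower in KO in every condition, and ID2 stands apart in control DHT.

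ID1 (ENSG00000125968, chromosome 20, 30193086 to 30194318, plus strand) rose with DHT in both lines, and by less in KO. In control it had 164.6 and 186 normalized counts in EtOH and 725.9 and 1047 in DHT. In KO it had 399 and 311.5 in EtOH and 662.4 and 746 in DHT. The samples of DHT and EtOH did not overlap in either line, and the KO samples began higher in EtOH than the control samples. The rise was 2.34 (SE 0.19, DESeq2 adjusted p = 6.99e-34) in control and 0.99 (SE 0.18, adjusted p = 1.04e-06) in KO, and the response in KO minus that in control was -1.35 (SE 0.26, adjusted p = 0.000137), past the threshold. Between lines, ID1 was 1.02 higher in KO in EtOH (SE 0.19, adjusted p = 6.36e-06), whereas in DHT the difference of -0.33 (SE 0.17, adjusted p = 0.191) did not pass. In FM, with 907.8 and 955.2 counts in control and 1264.8 and 1299.9 in KO, the value of 0.46 (SE 0.17, adjusted p = 0.0437) was under the fold change minimum.

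ID2 (ENSG00000115738, chromosome 2, 8818975 to 8824591, plus strand) had 1071.5 and 1149.9 normalized counts in control EtOH, against 3072.1 and 3222.8 in control DHT. In KO it had 1298.8 and 1200.8 in EtOH and 1330.4 and 1440.3 in DHT. The control DHT samples were the highest of all 12, and the other 10 lay between 1071.5 and 1502.8. The fitted values, which chose the gene, were 1.5 (SE 0.11) for DHT in control, 0.15 (SE 0.11) in KO, a difference of -1.35 (SE 0.16), 0.17 (SE 0.11) for KO against control in EtOH and -1.18 (SE 0.11) in DHT. The values of the lines thus stood farthest apart in DHT for ID2 and in EtOH for ID1. In FM, which the choice did not use, ID2 had 1347.3 and 1502.8 normalized counts in control and 1129.5 and 1166.2 in KO. The groups did not overlap, and the value of -0.31 (SE 0.11, adjusted p = 0.0352) was under the fold change minimum. ID2 shares 145 exonic bases with the antisense gene ID2-AS1, which had 14 to 52 counts per sample, and its pseudogene ID2B was counted at 0 in every sample. The libraries were stranded, but the strand setting of the counting was not given in the sources used here.

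ID3 (ENSG00000117318, chromosome 1, 23884417 to 23885992, minus strand) had 644.2 and 783.8 normalized counts in control EtOH, 1042.9 and 1039 in control DHT, 949.5 and 839.5 in KO EtOH and 832.6 and 1022.9 in KO DHT. The control samples separated by treatment and the KO samples overlapped. Its DHT response was 0.54 (SE 0.14, adjusted p = 0.000919) in control, under the fold change minimum, and 0.05 (SE 0.14, adjusted p = 0.906) in KO. The difference between these, -0.49 (95% interval -0.88 to -0.11, adjusted p = 0.692), did not pass, though without control EtOH replicate 2 it was -0.64 with an adjusted p of 0.0401. Without that sample the control response of ID3 was 0.69 and passed as well (adjusted p = 2.19e-05). In FM, ID3 had 1701.8 and 1730.4 in control and 1838.4 and 1868.7 in KO, the highest samples of each line. No comparison of the lines within a condition passed for ID3.

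ID4 (ENSG00000172201, chromosome 6, 19837601 to 19842428, plus strand) was counted at 11.4 and 18.9 in control EtOH, 14.1 and 45.4 in control DHT, with 36.4 and 39.9 in control FM, all normalized. In KO it was counted at 38.4 and 27.3 in EtOH, 49.2 and 33.9 in DHT, and 73.7 and 82.2 in FM. KO samples were above control samples in EtOH and in FM and overlapped them in DHT. The fitted values were 1.11 (SE 0.51, adjusted p = 0.169) in EtOH, 0.49 (SE 0.46, adjusted p = 0.54) in DHT and 1.03 (SE 0.44, adjusted p = 0.0865) in FM, and none passed. The FM value did pass when only the FM samples were fitted (1.04, adjusted p = 0.012) or without control DHT replicate 1 (1.03, adjusted p = 0.0476). The DHT response in control, 0.98 (SE 0.51, adjusted p = 0.183), was 1.59 (adjusted p = 0.0224) without control DHT replicate 1, the sample at 14.1.

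BMPR1B (ENSG00000138696, chromosome 4, 95679106 to 96079599, plus strand), a type I receptor for BMPs and GDF5, rose with DHT in both lines. It had 119 and 84.6 normalized counts in control EtOH, 439.2 and 415.6 in control DHT, with 255.1 and 300.6 in control FM. In KO it had 27.1 and 38.6 in EtOH, 305.8 and 286.9 in DHT, and 180.9 and 220.3 in FM. Every KO sample lay below both control samples of its condition, and KO EtOH was the lowest group. DHT raised BMPR1B by 2.07 (SE 0.21, adjusted p = 2.39e-21) in control and by 3.16 (SE 0.26, adjusted p = 2.78e-32) in KO. The difference of 1.09 (SE 0.33, adjusted p = 0.15) did not pass, whereas without control EtOH replicate 2 it was 1.31 with an adjusted p of 0.0137. KO against control gave -1.62 (SE 0.27, adjusted p = 2.01e-07) in EtOH, a level lower by 3.07 times. In DHT the value was -0.53 (SE 0.19, adjusted p = 0.0388), under the fold change minimum, and in FM -0.47 (SE 0.20, adjusted p = 0.0789).

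BMPR1A (ENSG00000107779, chromosome 10, 88516353 to 88692582, plus strand), the other type I BMP receptor listed, passed in no comparison of the lines. Its normalized counts were 664.2 and 630.6 in control EtOH, 935.9 and 997.6 in control DHT, 593.4 and 612.6 in KO EtOH, and 900.4 and 833.7 in KO DHT. DHT samples were above EtOH samples in both lines, by 0.58 (SE 0.13, adjusted p = 0.000123) in control and 0.52 (SE 0.13, adjusted p = 0.000997) in KO, just under the fold change minimum in each. The control value passed at 0.59 when only its own samples were fitted, at 0.63 without control DHT replicate 1 and at 0.62 without control EtOH replicate 1. KO against control gave -0.10 (95% interval -0.36 to 0.16) in EtOH, -0.16 (-0.41 to 0.10) in DHT and -0.02 (-0.26 to 0.23) in FM. Its pseudogenes BMPR1AP1 and BMPR1AP2 had 10 to 35 and 12 to 41 counts, and reads that fit a gene and its copy equally well are not counted by HTSeq. Per kilobase, the ratio of BMPR1A to BMPR1B was largest in KO EtOH, at 59.9 against 5.01 normalized counts, and smallest in control DHT, at 96 against 65.1.

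BAMBI (ENSG00000095739, chromosome 10, 28966439 to 28971861, plus strand), a receptor-like protein without a kinase that dampens TGF-beta and BMP signals, was lower in KO in every condition and fell with DHT in both lines. Control samples had 1625.4 and 2140.6 normalized counts in EtOH, 866.2 and 1159 in DHT, and 1351.7 and 1377.3 in FM. KO samples had 673.7 and 605.1 in EtOH, 278.3 and 285.9 in DHT, and 500.9 and 514 in FM. The highest KO sample (673.7) lay under the lowest control sample (866.2) of any condition. KO against control gave -1.56 (SE 0.16, adjusted p = 7.34e-19) in EtOH, -1.84 (SE 0.17, adjusted p = 9.03e-25) in DHT and -1.43 (SE 0.17, adjusted p = 1.96e-15) in FM, a level lower by 2.95, 3.59 and 2.69 times. The response to DHT was -0.89 (SE 0.16, adjusted p = 6.72e-07) in control and -1.18 (SE 0.17, adjusted p = 3.11e-10) in KO. The difference of these responses was -0.29 (95% interval -0.75 to 0.18, adjusted p = 1).

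SMAD3 (ENSG00000166949, chromosome 15, 67356101 to 67487511, plus strand), which like SMAD2 carries TGF-beta and activin signals, fell with DHT. It had 510.1 and 369 normalized counts in control EtOH, 255.4 and 221.9 in control DHT, 497.3 and 475.2 in KO EtOH, and 297.7 and 308.8 in KO DHT. The treatments did not overlap in either line, and the EtOH samples of the lines overlapped each other. The response was -0.88 (SE 0.18, adjusted p = 2.29e-05) in control and -0.68 (SE 0.18, adjusted p = 0.00198) in KO, a difference of 0.20 (95% interval -0.30 to 0.70). In KO the call was lost without EtOH replicate 1 (-0.65, adjusted p = 0.0772) or DHT replicate 1 (-0.65, adjusted p = 0.0579). SMAD3 did not pass between the lines in EtOH (0.14, SE 0.18), DHT (0.34, SE 0.18) or FM (0.11, SE 0.19). An antisense gene that shares 182 exonic bases with it had 0 counts in every sample.

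Neither inhibitory SMAD passed the test with DHT. SMAD6 (ENSG00000137834, chromosome 15, 66994574 to 67075187, plus strand), which mainly restrains BMP signals, had 138.9 and 135.3 normalized counts in control EtOH, 109 and 112 in control DHT, 160.5 and 137.4 in KO EtOH, and 110.5 and 151.4 in KO DHT. SMAD7 (ENSG00000101665, chromosome 18, 46446223 to 46477335, minus strand), which restrains both TGF-beta and BMP receptors, had 159.9 and 129.3 in control EtOH, 115.1 and 133.2 in control DHT, 183.1 and 143 in KO EtOH, and 120.2 and 150.4 in KO DHT. Treatments separated the samples of SMAD6 in control and overlapped elsewhere. The DHT values were -0.31 (SE 0.22) and -0.19 (SE 0.22) for SMAD6 and -0.22 (SE 0.22) and -0.27 (SE 0.22) for SMAD7, in control and KO in that order, with adjusted p from 0.383 to 0.714. Neither gene passed between the lines: the largest values were in FM, at 0.36 (95% interval -0.04 to 0.76) for SMAD6 and 0.30 (-0.13 to 0.72) for SMAD7.

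**Figure D2:**
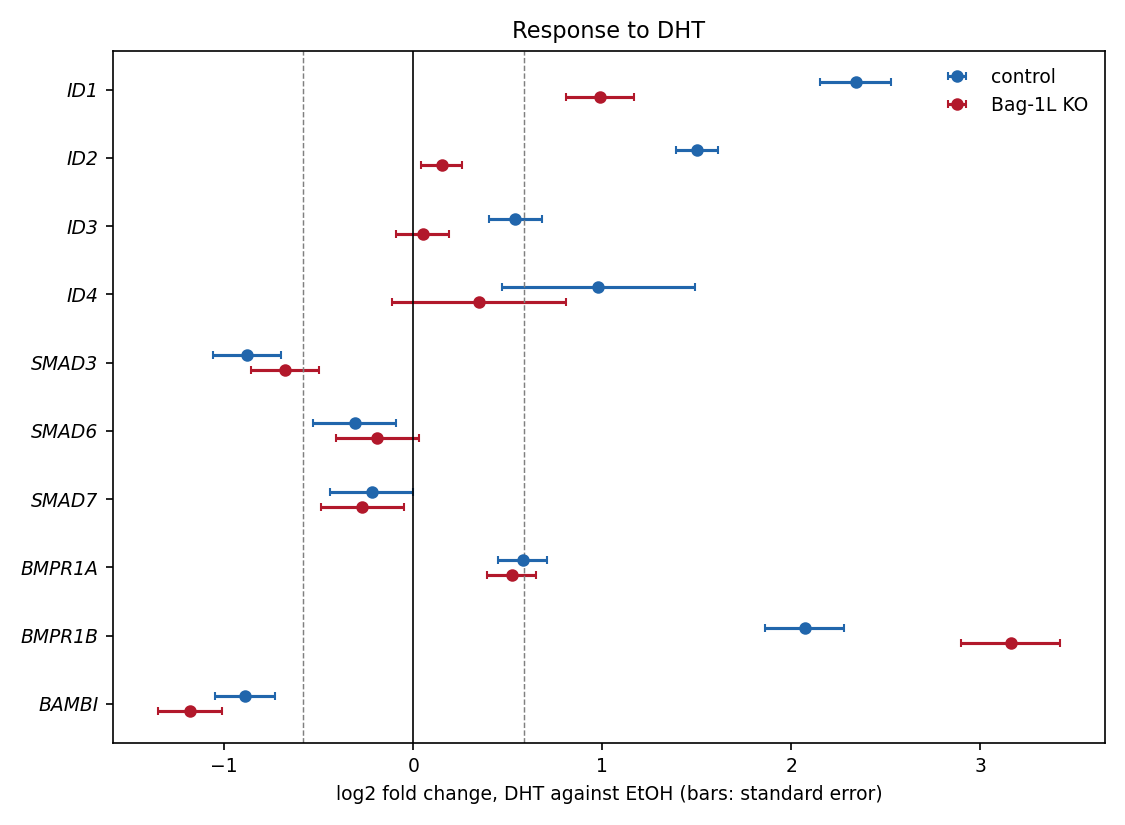
Log2 fold change of DHT against EtOH (x axis) for the 10 genes in control (blue) and Bag-1L KO (red), with standard errors as bars and dashed lines at 1.5-fold. ID1 and ID2 lie farther right in control and BMPR1B in KO. SMAD3 and BAMBI lie left of 0 in both lines, as do SMAD6 and SMAD7 by less. ID2 was chosen on these values.

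Counted over the 9 genes other than ID2, DHT raised 2 and lowered 2 in control, where 11.4% of all genes tested passed in either direction, and it raised and lowered the same numbers in KO, where 7.68% passed. ID1 and BMPR1B rose and SMAD3 and BAMBI fell in each line. The median DHT response of the 9 genes was 0.54 in control and 0.05 in KO, beside -0.017 and -0.014 over all genes. Both medians were the values of ID3. The median of the differences in response, KO minus control, was -0.05, beside -0.004 over all genes. The test of the difference in DHT response passed for 1 of the 9, ID1. It passed for 0.408% of all genes, and since ID2 was chosen from that same contrast nothing is read from this share.

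Between the lines, 1 of the 9 genes was higher and 2 were lower in KO in EtOH (5.11% of all genes passed), none was higher and 1 was lower in DHT (7.98%), and of all 10 genes none was higher and 1 was lower in FM (8.01%). BAMBI was the gene lower in KO under each condition, joined in EtOH by BMPR1B. The median of KO against control was 0.14 in EtOH, -0.16 in DHT and 0.11 in FM, beside -0.015, -0.018 and -0.014 over all genes.

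**Figure D3:**
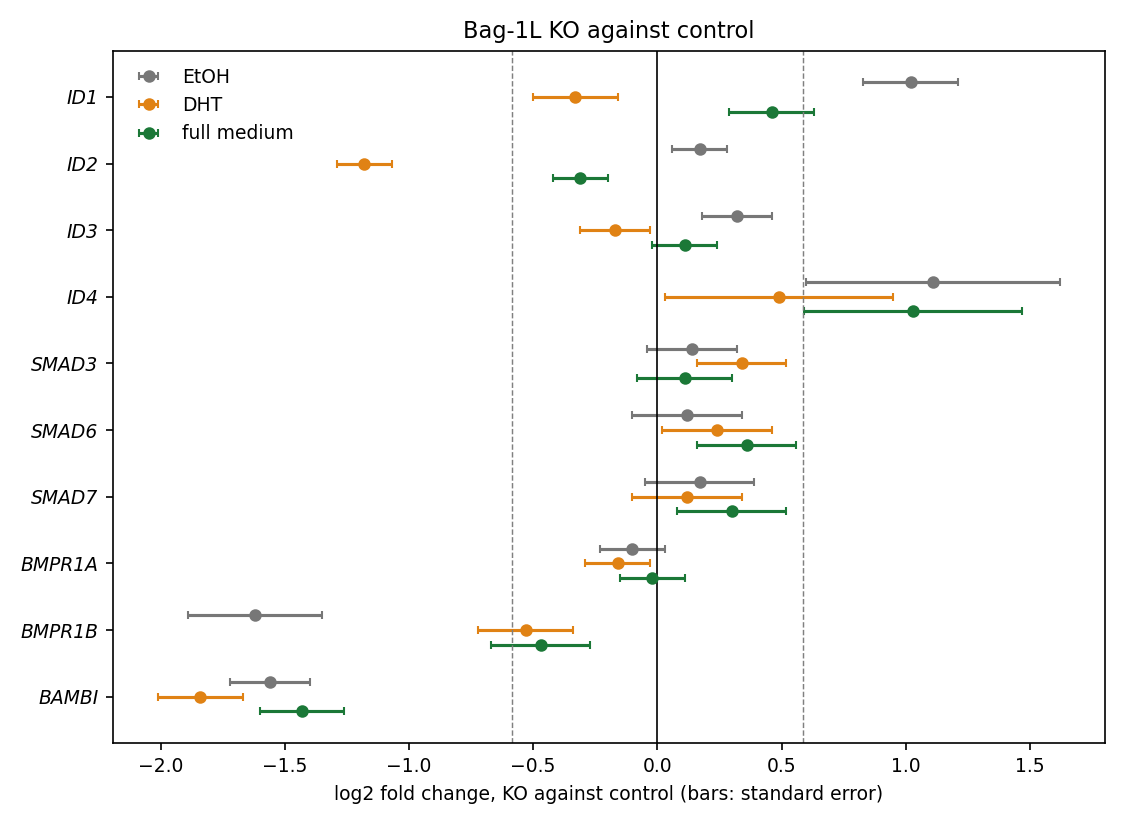
Log2 fold change of Bag-1L KO against control (x axis) for the 10 genes in EtOH (grey), DHT (orange) and full medium (green), with standard errors as bars and dashed lines at 1.5-fold. BAMBI lies between -1.84 and -1.43 in the 3 conditions. ID1 is at 1.02 in EtOH and -0.33 in DHT, and the EtOH and DHT values of ID2 are a description.

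Full medium was compared with starvation in EtOH, which uses the same EtOH samples as the DHT comparisons, so the errors of both are shared. In control, 5 of the 9 genes were higher and 1 was lower in FM, where 21.3% of all genes passed. In KO, 6 were higher and 1 was lower, where 19.3% passed. The medians of the 9 genes were 0.77 in control and 0.86 in KO, beside -0.009 and -0.007 over all genes.

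ID1 was higher in FM by 2.41 (SE 0.19, adjusted p = 5.03e-36) in control and 1.85 (SE 0.18, adjusted p = 1.05e-23) in KO, beside DHT responses of 2.34 and 0.99. ID3 was higher by 1.27 (SE 0.14, adjusted p = 1.58e-18) and 1.05 (SE 0.14, adjusted p = 2.96e-13), beside DHT responses of 0.54 and 0.05. ID2 gave 0.36 (SE 0.11) and -0.12 (SE 0.11), as a description, beside DHT responses of 1.5 and 0.15. Among the ID genes, then, the values for ID2 were larger with DHT than in FM in both lines and those for ID3 were larger in FM, a contrast of DHT with FM that was not tested. ID4 rose by 1.34 (SE 0.50, adjusted p = 0.0249) in control and 1.25 (SE 0.45, adjusted p = 0.0201) in KO from low counts. These ID4 calls were lost without control EtOH replicate 1 (1.02), without control FM replicate 1 (1.41) or replicate 2 (1.27), and without KO EtOH replicate 2 (1.02), KO FM replicate 1 (1.33) or KO FM replicate 2 (1.17).

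BMPR1A rose in FM by 0.77 (SE 0.13, adjusted p = 4.57e-08) in control and 0.86 (SE 0.13, adjusted p = 9.69e-10) in KO, with 992.8 and 1211 normalized counts in control FM and 1072.6 and 1110.3 in KO FM. BMPR1B rose by 1.45 (SE 0.21, adjusted p = 1.61e-10) and 2.59 (SE 0.26, adjusted p = 1.91e-21). SMAD3 fell to 193.3 and 170.2 normalized counts in control and 205.2 and 186.3 in KO, with values of -1.28 (SE 0.19, adjusted p = 1.76e-10) and -1.31 (SE 0.19, adjusted p = 2.97e-11). SMAD3 therefore had its highest samples after starvation in EtOH in both lines. SMAD6, with 214.2 and 178 in control FM and 250.9 and 251 in KO FM, gave 0.51 (SE 0.21, adjusted p = 0.0453, under the fold change minimum) and 0.76 (SE 0.21, adjusted p = 0.00161), and the KO call was lost without KO EtOH replicate 2 (0.64, adjusted p = 0.0842). SMAD7, with 166.8 and 165.4 in control FM and 214.5 and 192.9 in KO FM, did not pass (0.20 and 0.33, SE 0.22 each). BAMBI gave -0.46 (SE 0.16, adjusted p = 0.0141, under the fold change minimum) in control and -0.33 (SE 0.17, adjusted p = 0.122) in KO, and the control value passed at -0.65 without control EtOH replicate 1.

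The difference in FM response between the lines passed for 1 of 8 genes tested, BMPR1B, where 1.39% of all genes passed. Its value was 1.14 (SE 0.34, adjusted p = 0.0481). The call was lost with edgeR (1.15, adjusted p = 0.12), with no count filter, with only the groups compared and in 11 of 12 fits without a single sample, which gave 0.87 to 1.43 with adjusted p up to 0.563. ID1 gave -0.56 (95% interval -1.06 to -0.05, adjusted p = 0.269), and DESeq2 gave ID4 no adjusted p for this contrast.

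**Figure D4:**
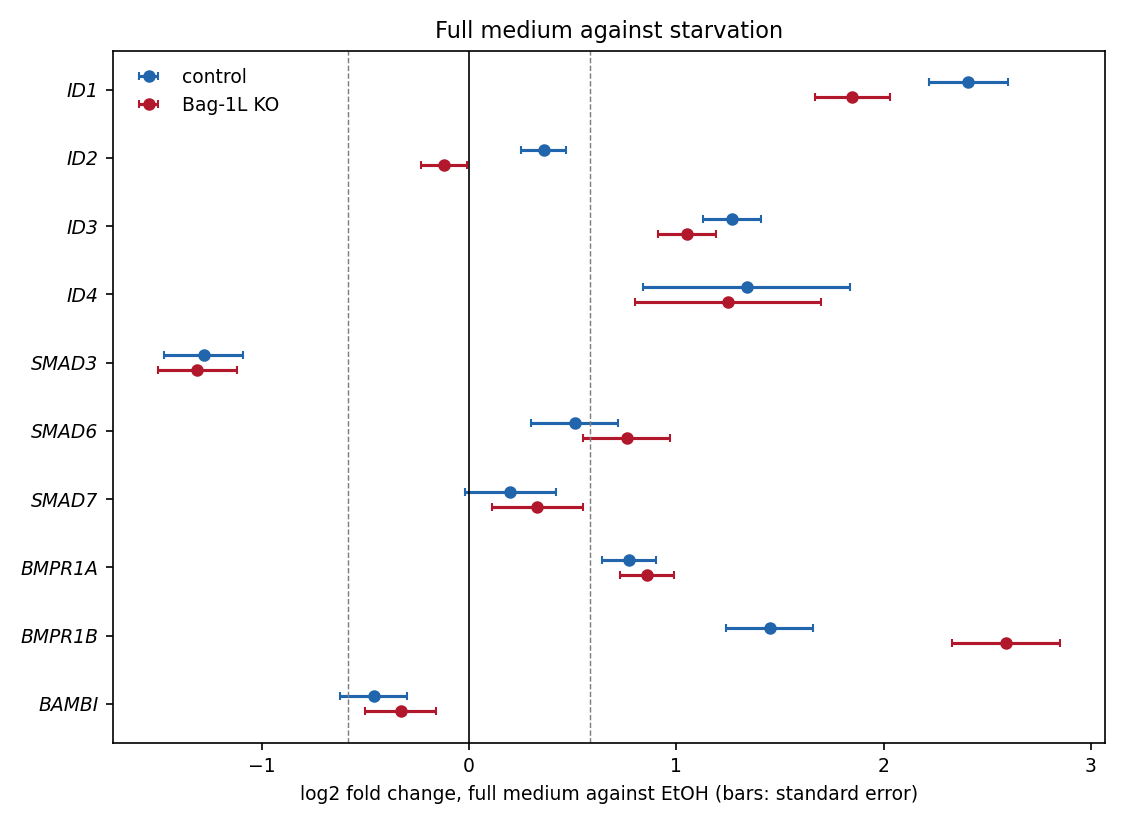
Log2 fold change of full medium against EtOH (x axis) for the 10 genes in control (blue) and Bag-1L KO (red), with standard errors as bars and dashed lines at 1.5-fold. ID1, ID3, ID4, BMPR1A and BMPR1B lie right of 0 in both lines, as do SMAD6 and SMAD7 by less. SMAD3 lies left, at -1.28 and -1.31, as does BAMBI by less, at -0.46 and -0.33. ID2 is a description.

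The wider pathway was read from a list of 68 other genes, of which 64 passed the count filter and BMP5, NOG, CHRDL2 and BMPER did not. In control DHT raised 7 and lowered 4 of 51 tested (21.6%, beside 11.4% of all genes), and in KO it raised 4 and lowered 2 of 51 (11.8%, beside 7.68%). Their medians were -0.03 and 0.02. None of 43 tested passed DESeq2's test of the difference in DHT response. Over all 64 past the filter, 4 had an unadjusted DESeq2 p under 0.05 and edgeR called 0.

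PMEPA1, a membrane protein known as an androgen-induced inhibitor of TGF-beta signalling, rose most, from 1740.5 and 1627.4 normalized counts to 7044.8 and 6612.1 in control and from 1488.7 and 1518 to 8389.8 and 8627.6 in KO. That is 2.02 (SE 0.09) in control and 2.5 (SE 0.09) in KO. NEDD4L and SMURF1, ubiquitin ligases that act on SMADs and receptors, rose in both lines, NEDD4L by 0.87 (SE 0.14) in control and 0.83 (SE 0.13) in KO and SMURF1 by 0.60 (SE 0.15) and 0.62 (SE 0.15). The ligand GDF15 rose in control (1.0, SE 0.20) and was at 0.34 (SE 0.21) in KO, and the activin type II receptor ACVR2A rose in control (0.94, SE 0.12) and was at 0.47 (SE 0.12) in KO. BMP6, a BMP ligand, fell in control (-0.77, SE 0.15) and was at 0 (SE 0.15) in KO. TGIF2, a corepressor of SMADs, was at -0.68 (SE 0.13) and -0.52 (SE 0.13), and the co-receptor TGFBR3 at -0.42 (SE 0.18) and -0.59 (SE 0.18), with TGIF2 past the threshold in control and TGFBR3 in KO. For none of these did the responses of control and KO differ past the threshold. TGFBR3 in KO was at -0.57 and no longer past the fold change minimum with edgeR, with DESeq2 and TMM factors, or when only its own samples were fitted. Without single samples it was at -0.68 to -0.48. The SMURF1 value in KO was 0.58, under the fold change minimum, without KO EtOH replicate 1.

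Between the lines, 1 of 49 list genes was higher and 0 lower in KO in EtOH (2.04%, beside 5.11% of all genes), 2 were higher and 1 lower of 49 in DHT (6.12%, beside 7.98%), and 6 were higher and 0 lower of 48 in FM (12.5%, beside 8.01%, with 812 higher and 390 lower over all genes). DLX5, a homeobox factor known as a BMP target, had the largest value in each among list genes past the threshold with a mean of at least 50 normalized counts. It had 31.4 and 22.9 normalized counts in control EtOH and 140.2 and 160 in KO EtOH, 26.2 and 26.2 against 193.6 and 256 in DHT, and 8.8 and 8.8 against 68.1 and 88.8 in FM. The samples of the lines did not overlap, at 2.47 (SE 0.32, adjusted p = 1.54e-12), 3.10 (SE 0.32, adjusted p = 4.07e-20) and 3.15 (SE 0.44, adjusted p = 1e-10). SMAD9, a receptor-regulated SMAD of the BMP branch, was higher in KO in DHT by 0.73 (SE 0.20, adjusted p = 0.00449), a call lost without control DHT replicate 2 (0.53) or KO DHT replicate 1 (0.63). GDF15 was lower in KO in DHT (-0.67, SE 0.20, adjusted p = 0.00917) and higher in FM (1.08, SE 0.24, adjusted p = 0.000296). The DHT call of GDF15 was lost without control DHT replicate 1 (-0.63), control DHT replicate 2 (-0.70) or KO DHT replicate 1 (-0.41), and the FM call without control FM replicate 2 (0.81). JUNB, an AP-1 factor, was at 0.68 (SE 0.26, adjusted p = 0.0482) in FM and lost its call with edgeR (0.70, adjusted p = 0.0653). It also lost the call in 7 of 12 fits without a single sample. The 12 fits gave 0.44 (without control FM replicate 2) to 0.94.

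In FM against EtOH, 5 of 51 list genes were higher and 8 lower in control (25.5%, beside 21.3% of all genes), and 7 were higher and 9 lower in KO (31.4%, beside 19.3%). SMAD9 (1.37 in control, 1.58 in KO, SE 0.20 each) and PMEPA1 (1.18 and 2.01, SE 0.10 each) rose in both lines, as did NEDD4L (1.16 and 0.69, SE 0.13 each) and PPM1A, a phosphatase that acts on SMADs (0.68 and 1.06, SE 0.11 each). BMP6 (-2.21 and -1.91, SE 0.16 each) and GDF15 (-2.13, SE 0.24, and -1.05, SE 0.22) fell in both, as did CHRD, which encodes the BMP antagonist chordin (-1.58, SE 0.27, and -1.64, SE 0.28), and DLX5 (-1.63, SE 0.46, and -0.94, SE 0.28). The control value of DLX5 did not pass when only its own samples were fitted (-1.63, adjusted p = 0.0722). The difference in FM response passed for 2 of 42 (4.76%, beside 1.39% of all genes), PMEPA1 (0.83, SE 0.13, adjusted p = 6.15e-07) and GDF15 (1.09, SE 0.32, adjusted p = 0.0485). The GDF15 call was lost with edgeR (1.11, adjusted p = 0.125), with no count filter (1.09, adjusted p = 0.0557), with only the groups compared (1.09, adjusted p = 0.0647) and in 8 of 12 fits without a single sample, which gave 0.82 to 1.39 with adjusted p up to 0.668.

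Likeness of pattern was taken as Pearson's r of the log2 normalized count (plus 1) over the 12 samples, which belong to 6 groups and share their medium effects, and is a description over 11095 genes ranked. ID1 was most like GSR (0.967), a glutathione reductase, TRGC1 (0.962) and HSPH1 (0.962), a heat shock protein. TRGC1 is annotated as a T-cell receptor gamma segment, and an effect of its close copy on the counts was not examined. It had 4 to 17.9 normalized counts in EtOH, 168.6 to 333.2 in DHT and 512.4 to 1534.3 in FM, over both lines. ID2 was most like KCTD1 (0.937), ATG13 (0.935), an autophagy protein, and USF1 (0.922), a basic helix-loop-helix leucine zipper factor. ID3 was most like CHCHD4 (0.968) and HCCS (0.966), mitochondrial proteins, and PGAP2 (0.965). Among the 10 genes themselves, ID1 was closest to BMPR1A (0.885) and ID3 (0.832) and ran opposite to SMAD3 (-0.87). ID2 had an r of 0.358 with ID1 and -0.01 with ID3.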

How the data were processed

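RNA was sequenced on an Illumina HiSeq from poly(A) libraries made with a stranded TruSeq kit, in 12 samples of 6 groups. The authors processed reads with CASAVA 1.7, aligned them with TopHat2 2.0.11 to GRCh37 and used HTSeq 0.5.3p3 to count reads on Ensembl genes (versions from the submitters' processing notes). The deposited values are raw read counts per gene, neither normalized nor pooled. The Ensembl release and the strand setting were not given in the sources used here. HTSeq's tallies of reads assigned to no gene were 26.86% to 31.49% of a sample's total and were left out. A chi-square of counts within each group was 3.19 to 36.46 per degree of freedom, above sampling noise, so each sample was counted once.

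Groups came from the labels. Positions came from GENCODE v44lift37, and sequences from RefSeq promoter tables, located on GRCh37 by exact match. Genes with at least 10 counts in sum (26156) were fitted with DESeq2 1.42.0 in R 4.3.3, the tool the study used, with the 12 samples in 1 model of 6 group means, Wald tests and unshrunken fold changes. Adjusted p-values (Benjamini-Hochberg) cover all genes tested. Intervals are 95%. The reference level of 3 counts covers counting error only and was not a filter. The fits were tested on simulated data.

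The 10 genes, the wider list and the tests were chosen with earlier results of these data known. Named were the 10 genes, BAG1, up to 3 rises and 3 falls per comparison of the wider list with a mean of at least 50 normalized counts, and the 3 genes most like each of ID1, ID2 and ID3 (mean at least 100).

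Alternatives were edgeR 4.0.16 quasi-likelihood tests with TMM, DESeq2 with TMM factors, no count filter, at least 10 counts in every sample, the replicate number as a block, a fit of only the groups compared, no fold change minimum, and each sample left out. A value past the threshold in neither the reported nor the alternative fit was taken as unmoved whatever its sign. Another marker gene and another motif, beside those in the text, are not reported here.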

Additional observations from a re-analysis of the deposited data

Results flagged for a closer look

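The DHT response of ID1 was not the same in both lines by the test of their difference, at -1.35 (SE 0.26, DESeq2 adjusted p = 0.000137) for KO minus control. The difference in response to full medium, KO minus control, passed the threshold for BMPR1B (1.14, SE 0.34, adjusted p = 0.0481), GDF15 (1.09, SE 0.32, adjusted p = 0.0485) and PMEPA1 (0.83, SE 0.13, adjusted p = 6.15e-07). BMPR1B and PMEPA1 rose by more in KO. GDF15 fell in both lines, by less in KO (-1.05) than in control (-2.13). The BMPR1B and GDF15 calls were lost with edgeR and in 11 and 8 of the 12 fits that left out a sample, whereas that of PMEPA1 was lost in 0. No group had enough samples to look for a sample that stands apart by the gap to its nearest neighbour.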

How the results depend on the processing

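The counts of genes past the threshold among the 9 genes other than ID2 (10 in KO against control in FM) were 4 for DHT in control, 4 for DHT in KO, 1 where the DHT responses of the lines were compared, 3, 1 and 1 between the lines in EtOH, DHT and FM, 6 and 7 for FM in control and KO, and 1 for the difference in FM response. The last count became 0 with edgeR, with no count filter and with only the groups compared. KO against control in FM became 2 with only the groups compared and 3 with no fold change minimum. KO against control in DHT became 2 with no fold change minimum. Other counts moved as well. With no fold change minimum, ID3 and BMPR1A also passed for DHT in control, and BMPR1A for DHT in KO. SMAD6 and BAMBI then passed for FM in control. With only the groups compared, BMPR1A also passed for DHT in control and ID4 no longer passed for FM in control. Leaving out each sample gave 4 to 6 for DHT in control, 3 to 4 for DHT in KO, 1 to 3 for the difference in DHT response, 3 to 3, 1 to 1 and 1 to 2 for the lines in EtOH, DHT and FM, 5 to 6 and 5 to 7 for FM, and 0 to 1 for its difference. The cause of these shifts was not tested. Each such fit leaves 1 sample in a group, which is assumed to vary like the others.

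The difference of ID1 in DHT response was -1.32 (adjusted p = 0.0298) with edgeR, -1.34 (0.0116) with only the starved samples and -1.59 to -1.06 without single samples, at most at an adjusted p of 0.05, and it stayed past the threshold in each. Over named genes, 2256 alternative values kept their side of the threshold, 58 lost and 19 gained it, and 0 turned a call around. That tally includes ID2 in every comparison. The ID2 values that use the starved samples carry no test, so nothing is read from their place in the tally. Of the 64 wider-list genes, edgeR called 3 and DESeq2 1 between the lines in EtOH, 5 and 3 in DHT, and 1 and 2 for the difference in FM response. DESeq2 gave adjusted p-values to 49, 49 and 42 of them. Over all genes the difference in DHT response passed for 55 with DESeq2, 24 with edgeR and 19 with only the starved samples, and that in FM response for 180 with DESeq2, 65 with edgeR and 281 with the replicate block. Without a single sample these counts ran from 16 (without KO EtOH replicate 2) to 155 (without control EtOH replicate 2) for DHT and from 49 (without control FM replicate 2) to 2124 (without control EtOH replicate 1) for FM.

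The labels give every group replicate numbers 1 and 2. The difference between replicates was compared between groups by correlation. The 15 correlations averaged 0.033 and ran from -0.415 to 0.692, with 6 over 0.1. The replicates of control EtOH deviated together with those of control DHT (0.692), KO DHT (0.559) and KO FM (0.474). They deviated against those of KO EtOH (-0.414) and control FM (-0.238), so no single shift was shared by all groups. With the replicate block every count given above for the described genes was the same, at 4, 4, 1, 3, 1, 1, 6, 7 and 1, and the ID1 difference was -1.35. Over all genes, the difference in FM response passed for 281 with the block and 180 without it.

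With 2 samples a group, control EtOH being the most variable, small responses such as that of ID3 and scarce genes such as ID4 are measured with little precision. The fit shares 1 spread per gene over the 6 groups, so p-values that use control EtOH do not follow its own wider spread. With only the groups compared, the genes past the threshold went from 2001 to 1379 for DHT in control. They went from 844 to 531 for KO against control in EtOH and from 1346 to 1335 for DHT in KO. Full medium was neither starved nor given vehicle, and DHT was measured at 1 dose and 1 time. The KO line comes from isolated clones, so line and genotype cannot be told apart.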
